A study of Mus musculus with 6 samples.

Results

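Kainate receptors and metabotropic glutamate receptors were followed in mouse primary neurons after CRISPR activation of *Kcna1*. The set holds 9 genes, taken by symbol from the 50508 symbols listed in each library: the kainate receptor subunits *Grik1*, *Grik2*, *Grik3*, *Grik4* and *Grik5*, and the metabotropic glutamate (mGlu) receptors *Grm2*, *Grm3*, *Grm5* and *Grm7*. All 9 were above 0 and entered the test, which covered 19504 genes. Both groups of neurons came from newborn C57Bl/6J pups and received a lentivirus that encodes the activator dCas9-VP160. In Kcna1-dCas9A neurons (3 libraries, labelled sgKcna1) the guide was sg19, directed to the promoter of *Kcna1*, which encodes the potassium channel Kv1.1. In Ctrl-dCas9A neurons (3 libraries, labelled sgLacZ) the guide was directed to LacZ. The activator was driven by the Ef1alpha promoter, which is not restricted to neurons. The labels give hippocampus as the source of the cells, whereas the study's methods name cortical neurons.

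Kainate receptors are glutamate-gated cation channels built from 4 subunits. GluK1, GluK2 and GluK3 (*Grik1* to *Grik3*) form channels on their own, whereas GluK4 and GluK5 (*Grik4* and *Grik5*), which bind kainate with high affinity, reach the surface as functional channels together with one of the former. In the hippocampus kainate receptors are known at mossy fibre synapses, and kainic acid, which gave them their name, is used to induce seizures. The mGlu receptors couple to G proteins instead. mGlu5 (*Grm5*, group I) acts through Gq and phospholipase C, mainly postsynaptically. mGlu2 and mGlu3 (*Grm2* and *Grm3*, group II) and mGlu7 (*Grm7*, group III) act through Gi and Go, and mGlu7 sits at the presynaptic active zone.

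The QuantSeq 3′ FWD kit used for the libraries samples transcript ends, and no division by gene length applies, so levels of different genes are compared per transcript end. The deposited values are whole numbers scaled to a common library total, with totals from 999047 to 999717 in the 6 libraries. Read depth is unknown, and values below about 10 rest on few units. *Kcna1*, the targeted gene, was listed at 16, 16 and 16 in Ctrl-dCas9A, against 68, 47 and 65 in Kcna1-dCas9A, so that every library followed its label. One control library stood apart. Among the 8050 genes whose mean was 10 or more, the SD of the log2 difference between Ctrl-dCas9A replicate 3 and the other controls was 0.457 and 0.427, against 0.301 between replicates 1 and 2. To Kcna1-dCas9A replicates 1, 2 and 3 it was 0.352, 0.380 and 0.457. Among genes at this level whose groups did not overlap, 1 control was nearest to the Kcna1-dCas9A mean, with no tie, in 2959, and it was replicate 3 in 2275 of these (76.9%). Each receptor gene and gene list is therefore also given without this library. Because this control lay nearest to Kcna1-dCas9A, leaving it out tends to widen the differences between groups. Without it 2711 genes passed an adjusted p of 0.05 in limma, against 226 with all libraries, so that fit is no independent check. All 8 neuronal markers examined were detected, and among hippocampal markers *Zbtb20* was at 1358 to 1441 in Ctrl-dCas9A and 1250 to 1516 in Kcna1-dCas9A. *Prox1*, a marker of dentate granule cells, was at 107 to 160 against 75 to 101, with groups apart. Of 7 hippocampal markers tested 0 passed in limma (2 at an unadjusted p under 0.05, beside 23.2% of all genes), and 1, *Prox1*, without Ctrl-dCas9A replicate 3, beside 14.2% of all genes. *Lct*, another, was at 0 in all 6 libraries. Only 3 of the 8 markers listed had a mean of 10 or more, and most of the list's sum (1510 to 1659 in Ctrl-dCas9A) was *Zbtb20*. Which region the cells came from was not tested.

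The guide that separates the groups was set beside annotated start sites of the receptor genes. The first pair below shows sg19 with its PAM in capitals and its exact site in the genome, and the other pair the closest sites in the start-site windows of *Grik3* and *Grik5*, with capitals marking bases that differ from the guide.
sg19: agtcaatgatcacatcctccTGG
*Kcna1* target: agtcaatgatcacatcctcctgg
*Grik3*: CgGcGCtgCGcacatcTtActgg
*Grik5*: agAAaaGAaAGCcaGccATcggg

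On chromosome 6 of NCBIM37, 1 site next to an NGG PAM matched sg19 exactly (chr6:126595930-126595952, plus strand). RefSeq promoter windows (GRCm38.p6), which lie mostly before an annotated transcription start, were found for 7 of the 9 genes. *Grik1* and *Grm5* had no window. The fewest mismatches over the 20 bases of the guide, on either strand and next to an NGG PAM, were 8 in *Grik3* (chr4:125490660-125490682, minus strand). For *Grik5* there were 10 (chr7:25072486-25072508, plus strand), for *Grik4* 10, and for *Grik2*, *Grm2*, *Grm3* and *Grm7* 11. Of all 32851 windows, 42.6% held a site with 10 mismatches or fewer and 4.16% one with 8 or fewer. The windows of *Grik2*, *Grik3*, *Grik4*, *Grik5* and *Grm7* that held these sites belong to start sites inside the span of the gene, and start sites with no window were not searched. Binding of sg19 was not tested.

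Among the kainate receptor genes, *Grik5* fell in Kcna1-dCas9A neurons and was the only one to pass the threshold, with *Grik4*, the other high-affinity subunit, at overlapping levels in the groups. *Grik5* (chr7:25009849-25075694, GRCm38.p6) was listed at 38, 38 and 25 in Ctrl-dCas9A, against 13, 11 and 10 in Kcna1-dCas9A. The groups did not overlap. The means were 33.7 ± 7.5 (SD, n = 3) and 11.3 ± 1.5 (SD, n = 3), a level 2.97-fold lower. On the log2(value + 1) scale the difference was -1.47 (standard error 0.21, 95% interval -1.96 to -0.99; limma, adjusted p = 0.049 by Benjamini-Hochberg over all 19504 genes). Its p ranked at 68 among all genes tested. Without Ctrl-dCas9A replicate 3 the difference was -1.67 (adjusted p = 0.017 from limma). When each of the other libraries was left out, the adjusted p from limma exceeded 0.05, up to 0.143, with differences between -1.57 and -1.38. The call was also lost with a pseudocount of 0.5 (adjusted p = 0.051 from limma) and with a replicate block (0.11). *Zfp574*, a zinc finger gene whose span overlaps that of *Grik5* by 21 bases, was listed at 32, 37 and 37 against 45, 38 and 40, with Kcna1-dCas9A higher.

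*Grik4* was listed at 44, 36 and 32 in Ctrl-dCas9A, against 38, 44 and 50 in Kcna1-dCas9A. These ranges overlapped, and the log2 difference was 0.23 (standard error 0.16, 95% interval -0.15 to 0.62, adjusted p = 0.45 from limma), and 0.13 without Ctrl-dCas9A replicate 3 (adjusted p = 0.58), 0.36 without replicate 1 and 0.14 without Kcna1-dCas9A replicate 3. The value of *Grik5* relative to *Grik4* was 0.864, 1.06 and 0.781 in controls, against 0.342, 0.25 and 0.2 in Kcna1-dCas9A. Controls thus held nearly as much *Grik5* as *Grik4*, and every Kcna1-dCas9A library far less.

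Of the subunits that form channels on their own, *Grik2*, which encodes GluK2, was listed at 44, 44 and 39 in Ctrl-dCas9A, against 34, 33 and 36 in Kcna1-dCas9A. Every Kcna1-dCas9A library lay below every control. The log2 difference was small, -0.29 (standard error 0.11, 95% interval -0.56 to -0.03), and did not pass (adjusted p = 0.17 from limma). It was -0.35 without Ctrl-dCas9A replicate 3 (adjusted p = 0.055), and -0.18 with upper-quartile factors (95% interval -0.50 to 0.14). *Grik1*, which encodes GluK1, known in hippocampal interneurons, was listed at 11, 11 and 12 in Ctrl-dCas9A, against 16, 15 and 18 in Kcna1-dCas9A. It was the only one of the 9 genes whose groups stood apart with Kcna1-dCas9A higher. Its log2 difference was 0.49 (standard error 0.15, 95% interval 0.13 to 0.84, adjusted p = 0.11 from limma), and 0.53 without Ctrl-dCas9A replicate 3 (adjusted p = 0.059). *Grik3*, which encodes GluK3, was near the lower limit of these values, at 6, 5 and 6 in Ctrl-dCas9A against 5, 2 and 2 in Kcna1-dCas9A. Its groups met at 5, and its log2 difference of -0.81 (standard error 0.33) had an adjusted p of 0.19 from limma (-0.78 and 0.275 without Ctrl-dCas9A replicate 3). With a pseudocount of 5 the difference was -0.43.

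**Figure D1:**
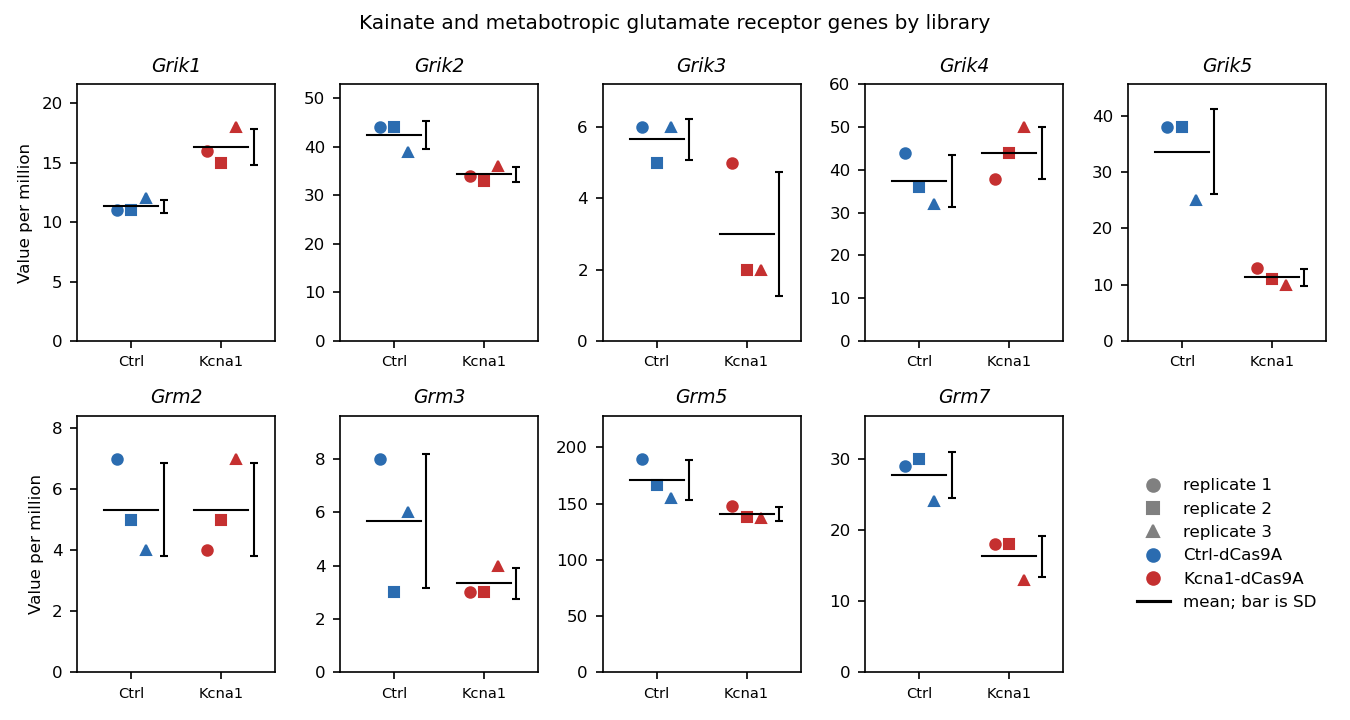
Scaled value of each of the 9 receptor genes (vertical axis, from 0 in every panel, with its own range) in the 3 Ctrl-dCas9A (blue) and 3 Kcna1-dCas9A (red) libraries; marker shapes stand for replicates 1, 2 and 3, horizontal lines for group means and bars for the SD. *Grik5* lies between 25 and 38 in Ctrl-dCas9A and between 10 and 13 in Kcna1-dCas9A, whereas the ranges of *Grik4*, *Grm2*, *Grm3* and *Grik3* meet or overlap.

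The summed value of the 5 kainate receptor genes was 143, 134 and 114 in Ctrl-dCas9A, against 106, 105 and 116 in Kcna1-dCas9A. These totals overlapped, whereas the shares of single subunits did not always do so. *Grik5* took up 26.6%, 28.4% and 21.9% of this sum in controls, against 12.3%, 10.5% and 8.62% in Kcna1-dCas9A. The share of *Grik4* was 30.8%, 26.9% and 28.1% in controls and 35.8%, 41.9% and 43.1% in Kcna1-dCas9A, and that of *Grik1* was 7.69%, 8.21% and 10.5% against 15.1%, 14.3% and 15.5%. For these 3 genes the shares did not overlap between the groups. *Grik2* kept a share between 30.8% and 34.2% in all 6 libraries. Shares of one sum are tied to each other, so that a smaller share of *Grik5* raises the others. Relative to *Grik2*, the value of *Grik1* was 0.25, 0.25 and 0.308 in controls and 0.471, 0.455 and 0.5 in Kcna1-dCas9A. As a share of all 18 ionotropic subunit genes examined (AMPA, NMDA, kainate and delta), kainate receptor genes made up 8.70% to 10.9% in Ctrl-dCas9A and 7.16% to 8.57% in Kcna1-dCas9A.

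**Figure D2:**
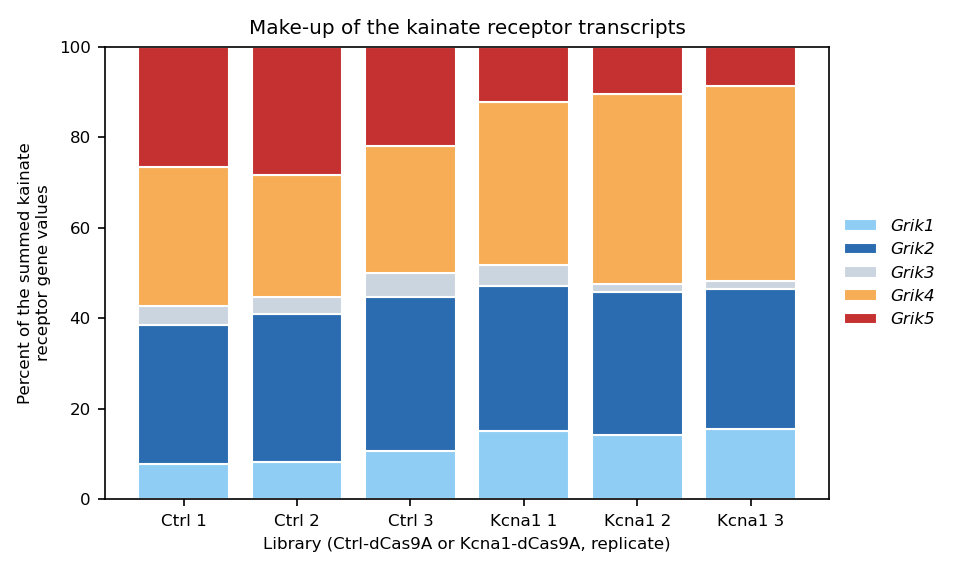
Percent of the summed values of the 5 kainate receptor genes (vertical axis) taken up by each gene in each of the 6 libraries (horizontal axis). The *Grik5* segment spans 21.9% to 28.4% in Ctrl-dCas9A and 8.62% to 12.3% in Kcna1-dCas9A, while that of *Grik2* stays between 30.8% and 34.2%.

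Among the mGlu receptors none of the 4 genes passed the threshold, and *Grm7* came nearest to it. *Grm7* (chr6:110645349-111567230, GRCm38.p6), which encodes the presynaptic receptor mGlu7, was listed at 29, 30 and 24 in Ctrl-dCas9A, against 18, 18 and 13 in Kcna1-dCas9A. All Kcna1-dCas9A libraries were below all controls. The mean was 27.7 ± 3.2 (SD, n = 3) in Ctrl-dCas9A, against 16.3 ± 2.9 (SD, n = 3) in Kcna1-dCas9A. The log2 difference was -0.73 (standard error 0.18, 95% interval -1.15 to -0.32, adjusted p = 0.065 from limma), and -0.83 without Ctrl-dCas9A replicate 3 (adjusted p = 0.048). With any of the other 5 libraries left out it did not pass (adjusted p from 0.142 to 0.217). It passed in 4 of the 10 alternatives that kept all libraries, with an adjusted p from limma between 0.0099 and 0.126 over these 10.

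*Grm5*, which encodes mGlu5, was the most abundant of the 9 genes. It was listed at 190, 167 and 155 in Ctrl-dCas9A, against 148, 138 and 137 in Kcna1-dCas9A. The groups were separated by 7 units, between control replicate 3 and Kcna1-dCas9A replicate 1. The log2 difference of -0.27 (standard error 0.10, 95% interval -0.51 to -0.02) had an adjusted p of 0.17 from limma, and without Ctrl-dCas9A replicate 3 it was -0.34 (adjusted p = 0.066). With upper-quartile factors it was -0.15, with a 95% interval from -0.41 to 0.11 that includes 0. The ratio of *Grm7* to *Grm5* was 0.153, 0.180 and 0.155 in controls and 0.122, 0.130 and 0.095 in Kcna1-dCas9A, so that *Grm7* was lower also relative to *Grm5* in every Kcna1-dCas9A library.

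The group II receptors were low in all libraries. *Grm2*, a presynaptic autoreceptor gene, was listed at 7, 5 and 4 in Ctrl-dCas9A, against 4, 5 and 7 in Kcna1-dCas9A, the same 3 values in both groups. Its 95% interval ran from -0.67 to 0.67 on the log2 scale, which leaves room for a difference of that size, and the difference was -0.16 without Ctrl-dCas9A replicate 3 (adjusted p = 0.716 from limma). *Grm3*, which is found in glia as well as in neurons, was listed at 8, 3 and 6 in Ctrl-dCas9A, against 3, 3 and 4 in Kcna1-dCas9A. These ranges overlapped (log2 difference -0.55, standard error 0.34, 95% interval -1.35 to 0.25, adjusted p = 0.375 from limma). The difference of *Grm3* was -0.30, -0.88 and -0.48 without Ctrl-dCas9A replicates 1, 2 and 3, with adjusted p from 0.18 to 0.61, and -0.33 with a pseudocount of 5. Of the mGlu genes outside the set, *Grm4* was listed at 5, 6 and 11 against 12, 15 and 17 (log2 difference 0.96, standard error 0.29, adjusted p = 0.11 from limma), and passed without Ctrl-dCas9A replicate 3. *Grm6*, a receptor of retinal bipolar cells, was at 0 in all 6 libraries, and *Grm8* did not exceed 1.

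**Figure D3:**
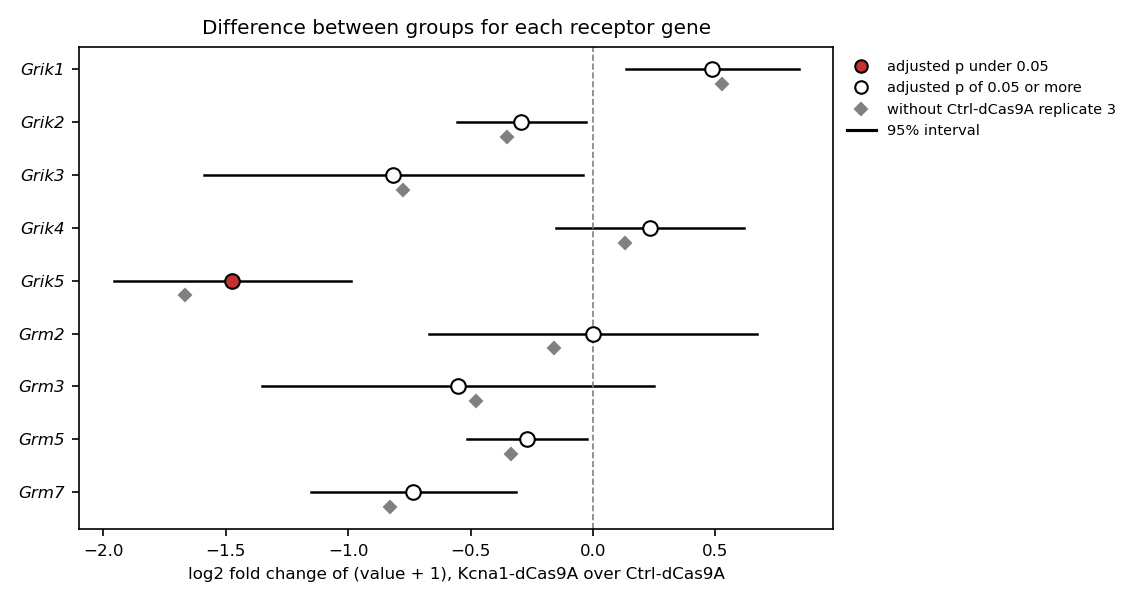
Log2 fold change of value + 1 in Kcna1-dCas9A over Ctrl-dCas9A (horizontal axis) for each of the 9 receptor genes; circles are the estimates from limma, filled where the adjusted p is under 0.05, lines their 95% intervals and diamonds the estimates without Ctrl-dCas9A replicate 3. *Grik5* at -1.47 is the only filled circle, and the interval of *Grm7* runs from -1.15 to -0.32.

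Of the set as a whole, 1 of the 9 genes passed an adjusted p of 0.05 from limma, and it was lower. Over all genes tested 1.16% passed, 0.81% lower and 0.349% higher. The split of all calls depended on the scaling (68 higher and 158 lower as reported, 963 higher and 758 lower after median-of-ratios rescaling), while among the 9 genes *Grik5* alone passed under both. Without Ctrl-dCas9A replicate 3, 2 of the 9 (*Grik5* and *Grm7*, both lower) and 14.2% of all genes passed (8.12% lower, 6.06% higher), whereas 0 of the 9 and 0 of all genes passed in limma when any other library was left out (3332 to 3853 genes at an unadjusted p under 0.05). Groups did not overlap for 5 of the 9 genes, 4 of them lower in Kcna1-dCas9A and 1 higher, against 22.2% of all genes tested (13.3% lower, 8.98% higher). That share rises with the level of the gene. All 5 are among the 6 receptor genes whose mean was 10 or more, and of all genes at that level 39.8% had groups apart and 2.1% passed. For each of the 5, a two-sided exact permutation test gave p = 0.1, the smallest that 3 libraries against 3 allow. At an unadjusted p of 0.05, 6 of the 9 genes and 23.2% of all genes passed. The median log2 difference was -0.29 over the 9 genes and -0.02 over all genes tested.

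The order of the levels shifted within the set. In Ctrl-dCas9A *Grm5* was highest (mean 171), followed by *Grik2* (42.3), *Grik4* (37.3), *Grik5* (33.7) and *Grm7* (27.7), whose neighbouring ranges overlapped from *Grik2* to *Grm7*. *Grik1* (11.3) came next, apart from its neighbours, and *Grik3*, *Grm3* and *Grm2* lay together between 3 and 8. In Kcna1-dCas9A the order was *Grm5* (141), *Grik4* (44.0), *Grik2* (34.3), *Grik1* and *Grm7* (16.3 each) and *Grik5* (11.3), with the ranges of *Grik1* and *Grm7*, and of *Grm7* and *Grik5*, overlapping. *Grik5* (25 to 38) overlapped *Grik4* (32 to 44) and came close to *Grik2* (39 to 44) in controls, and lay well below both in Kcna1-dCas9A (10 to 13 against 38 to 50 and 33 to 36).

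For the gene of each family with the highest mean over all 6 libraries, *Grm5* and *Grik4*, the genes with the closest profile were found by the root mean square difference of their centred log2 values, among the 8050 genes named above. For *Grm5* they included *Ppp3ca*, the catalytic subunit of the phosphatase calcineurin (0.021), and *Ip6k2*, an inositol hexakisphosphate kinase (0.038). *Ppp3ca* was listed at 866, 766 and 726 in Ctrl-dCas9A, against 675, 639 and 651 in Kcna1-dCas9A. For *Grik4* they were *Maged2* (0.041), *Pcbp3* (0.044) and *Mettl22* (0.056). With 6 libraries and so many genes, such closeness is weak evidence of a link. How close the nearest profiles of other genes lie was not tested.

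The summed value of the partners of kainate receptors was 151, 145 and 131 in Ctrl-dCas9A, against 118, 121 and 110 in Kcna1-dCas9A, with groups apart. The largest part of this sum was *Neto2*, and the log2 difference was above 0 for 3 of the 7 genes and below for 4. Of 7 partner genes with values, 0 passed the threshold in limma and 1 had an unadjusted p under 0.05, *Neto2*, beside 1.16% and 23.2% of all genes. Groups stood apart for 2, both lower, and overlapped for 5. This compares with groups apart for 22.2% of all genes tested and 39.8% of those whose mean was 10 or more, as in 4 of the 7. *Neto2*, an auxiliary subunit that shapes kainate receptor gating, was listed at 73, 67 and 57 in Ctrl-dCas9A, against 46, 52 and 41 in Kcna1-dCas9A, with groups apart (log2 difference -0.49, standard error 0.14, adjusted p = 0.092). Its relative *Neto1* was at 3 to 6 in all 6 libraries. *Grip1*, a scaffold protein, was listed at 27, 28 and 32 against 22, 24 and 24, also with groups apart. The median log2 difference of the 7 genes was -0.27. It was -0.23 without Ctrl-dCas9A replicate 3, and *Neto2* then passed in limma, 1 of 7 beside 14.2% of all genes.

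Genes acting with group I mGlu receptors (18 tested) held 0 past the threshold and 6 with an unadjusted p under 0.05, with a median of -0.05. The shares over all genes tested were 1.16% past the threshold and 23.2% with an unadjusted p under 0.05 in limma. *Shank1*, a postsynaptic scaffold that reaches mGlu5 through Homer proteins, was listed at 256, 298 and 334 against 320, 267 and 378, with overlapping groups. *Gnaq*, the G protein subunit that couples mGlu5 to phospholipase C, was listed at 281, 261 and 185 against 150, 131 and 148 (log2 difference -0.74, standard error 0.17, adjusted p = 0.056 from limma). Partners of group II and III receptors (17 tested) also held 0 past the threshold and 6 with an unadjusted p under 0.05, with a median of -0.09. *Gnao1*, the neuronal Go subunit, was listed at 1064, 969 and 943 against 943, 869 and 898, and *Gnb1*, a G protein beta subunit, at 557, 528 and 494 against 551, 533 and 679. Both pairs of ranges met or overlapped. The related AMPA, NMDA and delta receptor subunits (12 tested) held 0 past the threshold and 3 with an unadjusted p under 0.05, with a median of -0.03. *Grin2b* was listed at 400, 517 and 445 against 486, 396 and 448 and *Gria1* at 295, 293 and 319 against 384, 333 and 344. Groups were apart for *Gria1* (adjusted p = 0.196 from limma) and overlapped for *Grin2b*. Without Ctrl-dCas9A replicate 3 the counts past the threshold in limma were 5 of 18 for group I partners (1 higher, 4 lower, *Gnaq* among the latter), 6 of 17 for group II and III partners (2 higher, 4 lower) and 1 of 12 for the related subunits (lower), beside 14.2% of all genes in that fit. The medians were then -0.14, -0.17 and -0.05. With all libraries, groups stood apart for 4 higher and 3 lower of the 18, 2 higher and 3 lower of the 17, and 2 higher and 1 lower of the 12, beside 22.2% of all genes tested. For genes whose mean was 10 or more that share was 39.8%.

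Genes of glutamate transport and recycling, which clear glutamate from the synapse and are in part expressed by astrocytes, held 1 gene of 10 past the threshold, beside 1.16% of all genes. *Glul*, the astrocytic glutamine synthetase, fell from 133, 126 and 117 to 75, 75 and 74 (log2 difference -0.74, standard error 0.09, adjusted p = 0.049 from limma). *Slc1a3* and *Slc1a2*, the glial glutamate transporters, were listed at 269, 270 and 201 against 140, 162 and 140, and at 209, 218 and 226 against 191, 162 and 183. Neither passed (adjusted p = 0.055 and 0.13 from limma), although the groups of both were apart. The median of the 10 genes was -0.22. Without Ctrl-dCas9A replicate 3 it was -0.20, with 4 of 10 past the threshold in limma (1 higher, 3 lower, *Glul* and *Slc1a3* among the latter), beside 14.2% of all genes. With any other library left out, with the replicate block or with a pseudocount of 0.5, 0 of the 10 passed. With all libraries, groups stood apart for 5 lower and 1 higher, beside 22.2% of all genes tested and 39.8% of those whose mean was 10 or more, as in 9 of the 10.

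**Figure D4:**
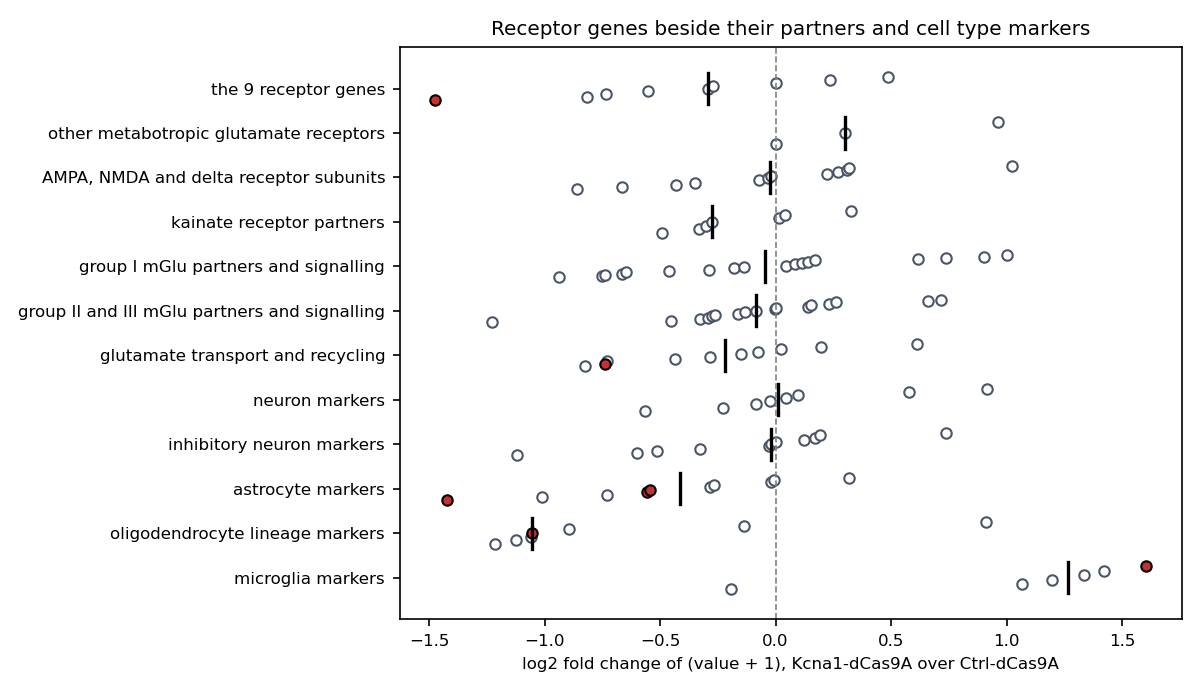
Log2 fold change of value + 1 in Kcna1-dCas9A over Ctrl-dCas9A (horizontal axis) for the 9 receptor genes and for lists of partner genes and cell type markers (vertical axis); each circle is a gene, filled where the adjusted p from limma is under 0.05, and black lines are list medians. The list medians run from -1.05 (oligodendrocyte lineage markers) to 1.26 (microglia markers). That of the 9 receptor genes is -0.29, beside -0.27 for kainate receptor partners, 0.01 for neuronal markers and -0.41 for astrocyte markers.

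Levels of cell type markers differed between the groups alongside the receptor genes. In these mixed cultures fewer cells of a type and less RNA per cell cannot be told apart. Of 10 astrocyte markers, 3 passed and were lower (*Aqp4*, *Sox9* and *Aldoc*), 0 passed and were higher, and the list summed to 961 to 1069 in Ctrl-dCas9A and 702 to 718 in Kcna1-dCas9A. Over all genes tested 1.16% passed, 23.2% had an unadjusted p under 0.05 in limma and groups stood apart for 22.2%. Of genes whose mean was 10 or more, as in most of the astrocyte and neuron markers, groups stood apart for 39.8%. Groups stood apart for 6 astrocyte markers, all lower, and overlapped for 4, among them *Gfap* (45 to 63 against 46 to 70), *Aldh1l1* (5 to 12 against 6 to 11) and *S100b* (3 to 8 against 6 to 9). Of the 6, *Slc1a2* and *Slc1a3* are also in the glutamate transport list. Of 7 oligodendrocyte lineage markers tested, 1 passed and was lower (*Olig2*), with sums of 66 to 98 and 40 to 44, *Olig1* at 34 to 59 against 15 to 24, and *Mog* at 0 in all libraries. Groups stood apart for 4 lower and 1 higher of the 7, the latter being *Mbp*, a myelin protein gene, at 2 to 3 against 4 to 7. Of 6 microglia markers tested, 1 passed and was higher (*C1qa*), with sums of 22 to 25 and 53 to 72 and *Aif1* at 6 to 12 against 17 to 26, while *P2ry12* and *Tmem119* were at 0 throughout. For neurons, 0 of 8 general markers passed (4 at an unadjusted p under 0.05, median 0.01), and their sum was 6105 to 6983 in Ctrl-dCas9A and 7157 to 8533 in Kcna1-dCas9A. The higher sum came from *Tubb3*, at 1752 to 2605 against 3221 to 4591. Leaving it out, a choice made after seeing the values, the other 7 summed to 4243 to 4387 and 3936 to 4205, with *Map2* at 1614 to 1819 against 1427 to 1466, *Snap25* at 86 to 94 against 56 to 66 and *Stmn2* at 1756 to 1924 against 1648 to 1850. *Nefl* went the other way, at 118 to 158 against 182 to 211, so that groups stood apart for 2 higher (*Tubb3* and *Nefl*) and 2 lower (*Map2* and *Snap25*) of the 8. Inhibitory neuron markers, set beside *Grik1*, held 0 of 11 past the threshold (4 at an unadjusted p under 0.05). Their sums, 316 to 359 and 312 to 375, overlapped, with *Sst* at 114 to 135 against 121 to 161 and *Dlx1* at 44 to 52 against 52 to 65, and *Pvalb* was at 0 throughout. Groups stood apart for 3 lower, *Gad1* (21 to 31 against 15 to 18), *Slc32a1* (34 to 42 against 21 to 31) and *Dlx2* (9 to 17 against 4 to 6), and 1 higher, *Npy* (10 to 15 against 17 to 25). Excitatory neuron markers held 0 of 8 past the threshold (4 at an unadjusted p under 0.05), with sums of 1340 to 1500 and 1298 to 1378, and *Neurod2* at 558 to 680 against 546 to 601. Groups stood apart for 1 lower, *Neurod6* (471 to 512 against 361 to 388), and 3 higher, *Camk2a* (88 to 124 against 145 to 175), *Slc17a7* (29 to 41 against 47 to 57) and *Nrgn* (70 to 93 against 101 to 139). The glutamate transport list also holds *Slc17a7*. Without Ctrl-dCas9A replicate 3 the counts past the threshold in limma were 5 of 10 for astrocytes (all lower), 2 of 7 for oligodendrocytes (both lower), 2 of 6 for microglia (both higher), and 3 of 8, 3 of 11 and 3 of 8 for general, inhibitory and excitatory neurons, in both directions, beside 14.2% of all genes in that fit. None of these markers passed when any other library was left out, with the replicate block or with a pseudocount of 0.5. The part of these shifts in the values of *Grik5*, *Grm7*, *Grm5* and *Grm3* was not tested.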

How the data were processed

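RNA of mouse primary neurons was sequenced in 6 libraries, 3 each of Ctrl-dCas9A and Kcna1-dCas9A, grouped by the sample labels. The deposited score of a gene is a whole number. Totals from 999047 to 999717, and a replicate variance of 0.698 (Ctrl-dCas9A) and 0.499 (Kcna1-dCas9A) times the mean for genes with a mean from 4 to 8, below what counting gives, show a value scaled to a common total and rounded by the authors; the scaling is not given in the sources used here. The study's methods name Bowtie2 and NCBI37/mm9, whereas the submitters' processing notes list STAR 2.7, featureCounts, DESeq2 and mm10. Whether counting used the strand is not given. Reads per library are unknown, so that no count model and no counting interval was used.

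The test covered each gene with a value above 0 in 1 or more libraries and used limma 3.58.1 (R 4.3.3) on log2(value + 1), with an intensity trend and the group as the only factor, and a Benjamini-Hochberg threshold of 0.05. Such differences understate the change of low genes. The study's methods state independent repetitions for its experiments in general. The labels do not say whether these libraries came from separate cultures, and p-values measure the spread between these libraries, which may be technical. Single genes were also compared by exact permutation. The members and gene lists were chosen with earlier results of these data known. Genes named are the 9 members, *Kcna1*, genes of each list that passed or had the 2 highest means, and the 3 closest profiles, less those not reported here. *Neto1*, *Grm6*, *Grm8*, *Zfp574*, *Map2*, *Snap25*, *Nefl*, *Mbp*, the other neuron markers with groups apart and markers at 0 were named after their values were seen. Of 8 kainate partner genes, 7 had a row. Some genes are in more than 1 list. Promoter windows and gene positions came from RefSeq (GRCm38.p6) and the exact site of sg19 from NCBIM37, searched with Python 3.11.15. The alternatives were pseudocounts of 0.5 and 5, means of at least 1 or 10, rescaling, other variance models, a replicate block and each library left out.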

Additional observations from a re-analysis of the deposited data

How the results depend on the processing

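*Grik5* was lower in Kcna1-dCas9A under all 16 alternatives, with a log2 difference between -1.67 and -1.23, while its call depended on the setting, as did the number of genes called. As reported, 1 of the 9 receptor genes, 226 of all genes and 6 of the partner and marker genes passed in limma. These 3 counts were 0, 10 and 0 with a pseudocount of 0.5 (adjusted p of *Grik5* 0.051), and 1, 475 and 10 with a pseudocount of 5. For genes with a mean of at least 1 they were 2, 1543 and 26, and with a mean of at least 10 they were 2, 2289 and 33. They were 1, 1721 and 27 with median-of-ratios factors, 1, 2058 and 30 with upper-quartile factors, and 2, 1768 and 29 with Gm42418, which took 15.3% to 20.2% of each library, left out. With a robust variance they were 2, 2884 and 39, and without the intensity trend 1, 201 and 2. Where 2 receptor genes passed, they were *Grik5* and *Grm7*. When single libraries were left out the counts ranged from 0 to 2, from 0 to 2711 and from 0 to 35, the higher values being those without Ctrl-dCas9A replicate 3. In the 5 other fits limma called 0 genes, with 3332 to 3853 genes at an unadjusted p under 0.05. The log2 difference of *Kcna1* ranged from 1.73 to 1.99 in these fits, and its call was lost in those 5. The cause was not tested.

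The replicate numbers did not pair the libraries: the deviations of same-numbered libraries from their group means correlated at 0.014, 0.114 and 0.154 across genes. In a fit with a replicate block the 3 counts were 0, 0 and 0, with 4326 genes at an unadjusted p under 0.05, and *Kcna1* kept a log2 difference of 1.83 with an adjusted p of 0.11 from limma. Over all 141 fits of the 9 receptor genes under the alternatives, 129 kept their side of the threshold, 7 lost a call, 5 gained one and 0 turned their direction. *Grm2*, at 0 as reported, is not counted among turns. *Grik3*, *Grm2* and *Grm3* drop out with a mean of at least 10. Whole-number values limit what can be seen in these 3 genes, where 1 unit is a large part of the level.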
